A study of Homo sapiens with 4 samples.

Results

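The HOX genes were taken as the protein-coding genes of the GENCODE annotation of hg19 whose symbols are HOXA, HOXB, HOXC or HOXD followed by a number. They were 39 of 20149 protein-coding genes, and they lay in 4 clusters: 11 HOXA genes on chromosome 7, 10 HOXB genes on chromosome 17, 9 HOXC genes on chromosome 12 and 9 HOXD genes on chromosome 2. Peaks were taken from 50 kb before to 50 kb after each cluster, and a promoter peak was one that reached within 1 kb of a gene's start site. The rule that defines the members used the annotation alone and no measured value, but it was set with earlier results of these data known. The measured mark was H3K27ac, a histone acetylation of active promoters and enhancers, and the ChIP-seq libraries came from K562, an erythroleukaemia cell line of human origin. The cells had been transduced with an shRNA against TFAM (hairpin 1), with another shRNA against TFAM (hairpin 2) or with a control shRNA, labelled shNT. TFAM packages mitochondrial DNA and is needed for its transcription, and the series asks how acetylation in TFAM-deficient erythroid cells differs across the genome. Each condition had 1 library with 1 list of peaks, so there is no spread between replicates and no test of any difference, and intervals cover counting error only. The level of TFAM itself was not analysed here.

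HOX genes encode homeodomain transcription factors that set the identity of body segments in the embryo. Within a cluster all genes are ordered by paralog group, and in development the low-numbered genes at the 3′ end are switched on earlier and further towards the head than the high-numbered ones at the 5′ end. In blood, HOXA and HOXB genes are active in stem and progenitor cells and are turned down as cells mature, and Polycomb proteins hold silent clusters under a repressive histone mark.

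The promoter of HOXD8 is shown as an example of a HOX promoter rich in CpG that carried a peak in 1 library and none in the control. The line gives the 250 bases before its annotated start site in GRCh37 (the hg19 build), 5′ to 3′ along the gene's strand. The letters CCAAT or their complement ATTGG would stand in capitals, and it holds 0 of them.
HOXD8, chr2:176994183-176994432, plus strand: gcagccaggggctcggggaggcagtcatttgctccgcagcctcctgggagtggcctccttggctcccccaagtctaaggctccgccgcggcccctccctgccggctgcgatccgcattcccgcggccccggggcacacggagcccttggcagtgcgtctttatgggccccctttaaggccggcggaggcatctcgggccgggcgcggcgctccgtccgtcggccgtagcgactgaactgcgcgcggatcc
The stretch holds 28 CpG. The peak found with hairpin 2 began 112 bp after the start site, so it did not overlap the letters shown.

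Few HOX promoters were marked. A promoter peak was found at 5 of 39 HOX genes with hairpin 1, at 5 with hairpin 2 and at 4 with the control shRNA. These were 12.8% (exact Clopper-Pearson 95% interval 4.30 to 27.4), 12.8% (4.30 to 27.4) and 10.3% (2.87 to 24.2). Over all protein-coding genes the share was 54.7% with hairpin 1, 54.9% with hairpin 2 and 53.7% with the control shRNA. The HOX genes were therefore marked at well under the background share in each library, and neighbouring members are not independent of each other. No promoter peak was listed in any library for 33 of the 39 genes, where the share over all coding genes was 41.4%. The absence of a peak says only that the authors' caller listed none, since read depth was not given in the sources used here. No listed peak was wider than 8841 bp in any library, and whether wider regions were left out was not tested.

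**Figure D1:**
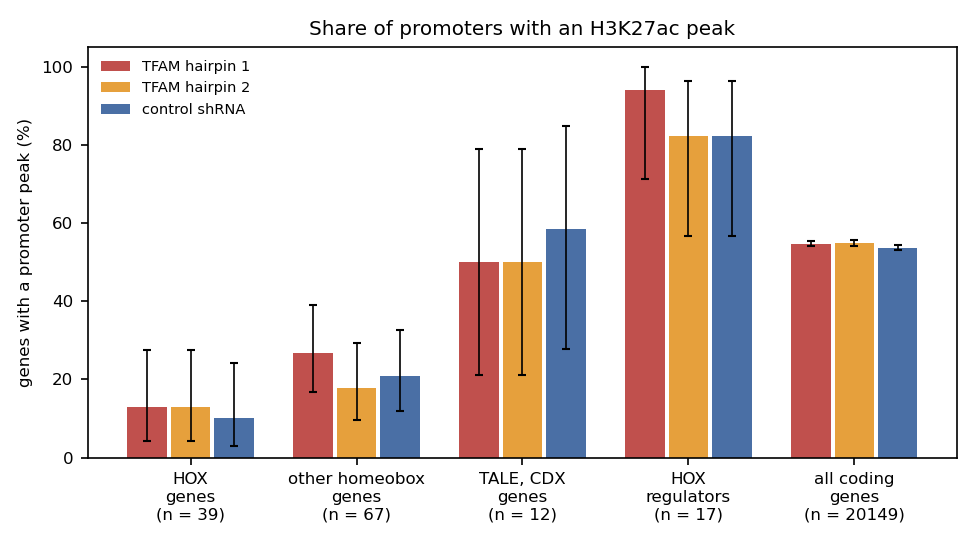
Percent of genes with a promoter peak (y axis, %) for the HOX genes and the other gene lists, in TFAM hairpin 1, TFAM hairpin 2 and control shRNA from left to right; bars are shares and lines are exact 95% intervals for counting error. The HOX bars stand at 12.8%, 12.8% and 10.3%, below all coding genes at 54.7%, 54.9% and 53.7%.

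The marked promoters were the same 4 in all libraries, with a further one in each hairpin library. HOXB6, HOXB7, HOXC6 and HOXC9 had a promoter peak in all 3 lists, against a background of 50.3% of coding genes. HOXC13 had one with hairpin 1 alone, against a background of 1.65%, and HOXD8 had one with hairpin 2 alone, against 1.68%. With the lists set to equal length the HOXC13 peak stayed and the HOXD8 peak did not. Hairpin 2 then had 4 marked HOX promoters, as did the control. No HOX promoter had a peak with both hairpins and none with the control shRNA, where the background was 1.53%, and none had a peak with the control shRNA alone, where it was 0.829%. Set against the control one hairpin at a time, hairpin 1 had 1 HOX promoter peak that the control lacked (background 3.18%) and hairpin 2 had 1 (background 3.21%). Neither hairpin lacked a HOX promoter peak that the control had (backgrounds 2.16% for hairpin 1 and 2.04% for hairpin 2). Among 39 genes, shares of that size come to about 1 gene, so these counts lie near the background.

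HOXB7, a factor of the trunk region also present in blood progenitors, had the promoter peak of highest rank. It ran over 3732 bp with hairpin 1 (46685916 to 46689647 on chromosome 17), 3408 bp with hairpin 2 (46686321 to 46689728) and 2439 bp with the control shRNA (46686570 to 46689008). By the authors' score it stood above 75.7% of all peaks with hairpin 1, 81.6% with hairpin 2 and 83.0% with the control. Thus the peak was wider in both hairpin libraries while its rank was highest in the control. Scores are the authors' values and served here only for ranks inside each list.

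HOXB6, the next gene of the cluster, has been studied in blood progenitors. Its peak spanned 3524 bp with hairpin 1, 3388 bp with hairpin 2 and 3524 bp with the control shRNA. It ranked above 33.4% of peaks with hairpin 1, 64.1% with hairpin 2 and 54.4% with the control. The widths were nearly the same and the ranks were not, with hairpin 1 lowest.

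HOXC9, of the group that patterns the lower trunk, had a peak of 2794 bp with hairpin 1, 2306 bp with hairpin 2 and 1983 bp with the control shRNA. Its ranks were 47.4% with hairpin 1, 65.0% with hairpin 2 and 62.0% with the control. HOXC6, a paralog of HOXB6, had a narrower peak of 1144 bp with hairpin 1, 627 bp with hairpin 2 and 742 bp with the control shRNA. It ranked above 15.8% of peaks with hairpin 1, 48.6% with hairpin 2 and 0.613% with the control, so in the control it was among the lowest scores of the list.

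The HOXC13 and HOXD8 promoters differed in how unusual a peak without a counterpart was at their rank. HOXC13, a factor of hair and nail formation, had a peak of 698 bp with hairpin 1 (54332444 to 54333141 on chromosome 12) that began before its start site, and it ranked above 38.7% of peaks. Of the 2382 hairpin 1 peaks within 5 percentiles of that rank, 12.2% had no counterpart in either of the other lists. HOXD8 had a peak of 522 bp with hairpin 2 (176994545 to 176995066 on chromosome 2), 112 bp from the start site, and it ranked above 8.21% of peaks. Of the hairpin 2 peaks of like rank, 57.3% had no counterpart in the other lists.

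Marked promoters were uneven across clusters and along them. HOXA had 0 of 11 in each library. HOXB had 2 of 10 in each library. HOXC had 3 of 9 with hairpin 1, 2 with hairpin 2 and 2 with the control shRNA, and HOXD had 0, 1 and 0 of 9 in that order of libraries. By paralog group, the 8 genes of groups 1 to 3 had none in any library. The 15 genes of groups 4 to 8 had 3 with hairpin 1, 4 with hairpin 2 and 3 with the control shRNA, and the 16 genes of groups 9 to 13 had 2, 1 and 1. By canonical start sites the marked members therefore lay in the middle and 5′ parts of the clusters. With the start sites of all transcripts that GENCODE tags as basic, HOXB3 of group 3 was marked as well.

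The sequence covered by peaks within 5 kb of a start site shows which genes had a peak nearby but not on the promoter. Some coverage was found at 13 HOX genes with hairpin 1 (58.9% of all coding genes), 9 with hairpin 2 (59.3%) and 11 with the control shRNA (58.1%). As shares of the 39 members these were 33.3%, 23.1% and 28.2%, again below the background. The mean over the 39 genes was 712 bp with hairpin 1, 463 bp with hairpin 2 and 485 bp with the control, and the median was 0 in each. Over all coding genes the means were 1676, 1765 and 1594 bp, and the medians 1493, 1548 and 1368 bp. The HOX genes thus had the lowest mean with hairpin 2, and all coding genes had the highest mean there.

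**Figure D2:**
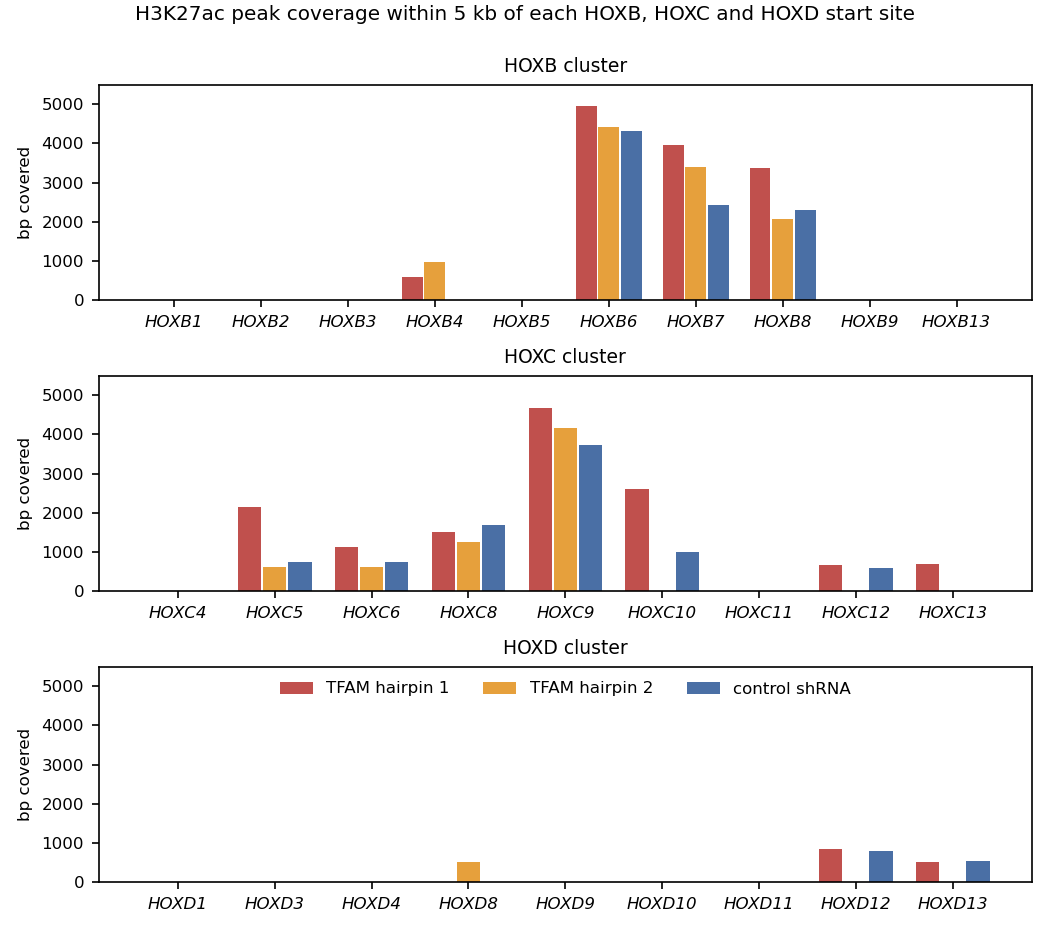
Sequence covered by H3K27ac peaks within 5 kb of the start site (y axis, bp) of each HOXB, HOXC and HOXD gene, one panel per cluster, with TFAM hairpin 1, TFAM hairpin 2 and control shRNA from left to right and 1 library per bar. HOXB6 and HOXC9 are the most covered, with 4957 and 4680 bp in hairpin 1.

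HOXB6, HOXC9 and HOXB7, with marked promoters, were the most covered genes in each library. HOXB6 had 4957 bp with hairpin 1, 4416 bp with hairpin 2 and 4303 bp with the control shRNA. HOXC9 had 4680 bp with hairpin 1, 4155 bp with hairpin 2 and 3730 bp with the control. HOXB7 had 3962 bp with hairpin 1, 3408 bp with hairpin 2 and 2439 bp with the control. At these 3 genes both hairpin libraries had more covered sequence than the control, with hairpin 1 the highest.

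HOXB8, HOXC5, HOXC6 and HOXC8 were covered in all libraries with a different order. HOXB8, a paralog of HOXC8 known in mice for immortalising myeloid progenitors, had 3379 bp with hairpin 1, 2075 bp with hairpin 2 and 2306 bp with the control shRNA. HOXC8 had 1521 bp with hairpin 1, 1261 bp with hairpin 2 and 1696 bp with the control. HOXC6 had 1144 bp with hairpin 1, 627 bp with hairpin 2 and 742 bp with the control. HOXC5 lies next to HOXC6, shares its peak, and had 2162, 627 and 742 bp in the same order. Hairpin 2 was the lowest library at each of these 4 genes. Among the 7 members covered in all lists, hairpin 1 had more than the control at 6 and hairpin 2 at 3. Over all coding genes covered in all lists, hairpin 1 had more at 56.9% and hairpin 2 at 66.4%. Since neighbouring genes share peaks, these 7 are fewer than 7 separate observations.

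The other 7 members with coverage had nearby peaks in some libraries only. HOXB4, which expands blood stem cells when overexpressed, had 601 bp with hairpin 1, 982 bp with hairpin 2 and 0 bp with the control shRNA. HOXC10 had 2615 bp with hairpin 1, 0 bp with hairpin 2 and 999 bp with the control. HOXC12 had 672, 0 and 602 bp in that order, HOXD12 had 852, 0 and 794 bp, and HOXD13, a gene of digit formation, had 511, 0 and 550 bp. HOXC10, HOXC12, HOXD12 and HOXD13 were alike in that hairpin 2 was the library without coverage. HOXC13 had 698 bp with hairpin 1 and 0 in the other libraries, and HOXD8 had 522 bp with hairpin 2 and 0 in the others. The 25 members not named with values had 0 bp in every library: all 11 HOXA genes, HOXB1, HOXB2, HOXB3, HOXB5, HOXB9 and HOXB13, HOXC4 and HOXC11, and HOXD1, HOXD3, HOXD4, HOXD9, HOXD10 and HOXD11.

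The limit of 1 kb left out some genes with peaks close by. The nearest peak to the HOXC8 start site was 1682 bp away with hairpin 1, 1687 bp with hairpin 2 and 1562 bp with the control shRNA. For HOXD12 the distances were 1733 bp with hairpin 1, 19035 bp with hairpin 2 and 1830 bp with the control. For HOXC10 they were 2348, 8884 and 3368 bp in that order. HOXC8 was thus close to a peak in all libraries, while HOXD12 and HOXC10 were far from one with hairpin 2. The start sites of all basic transcripts of each gene were also used. A promoter peak was then found at 7 HOX genes with hairpin 1, 7 with hairpin 2 and 6 with the control shRNA. In all lists 6 had one (background 52.1%). The genes added were HOXB3, by a start at 46631284 on chromosome 17 that lies 36319 bp downstream of the canonical one, and HOXC4, by the start of a long transcript at 54410715 on chromosome 12. At 46651385 and 46651849 HOXB3 has further annotated start sites, which had a promoter peak with both hairpins and none with the control shRNA. The HOXC4 start lies 36904 bp upstream of its canonical one.

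The clusters were covered very unequally, with HOXB and HOXC holding nearly all of the marked sequence. In the HOXA window (207 kb, chromosome 7, 27082612 to 27289710) there were 0 peaks with hairpin 1, 1 with hairpin 2 and 1 with the control shRNA. In the HOXB window (300.2 kb, chromosome 17, 46555888 to 46856112) there were 8, 7 and 9 in that order, and in the HOXC window (217 kb, chromosome 12, 54282615 to 54499814) there were 10, 7 and 8. The HOXD window (198 kb, chromosome 2, 176907449 to 177105635) held 2, 3 and 2. HOXA genes, the ones most often active in acute myeloid leukaemia, had no peak within 5 kb of a start site in any library. The median distance from a HOXA start site to the nearest peak was 287121 bp with hairpin 1, 74457 bp with hairpin 2 and 38325 bp with the control shRNA.

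As a share of length, the HOXC window was covered to 11.5% with hairpin 1, 5.97% with hairpin 2 and 7.66% with the control shRNA. The HOXB window was covered to 8.77% with hairpin 1, 7.79% with hairpin 2 and 8.08% with the control. The HOXD window was covered to 1.16%, 0.832% and 0.769% in that order, and the HOXA window to 0%, 0.383% and 0.440%. Over the genome the shares were 1.76%, 2.00% and 1.68%. HOXB and HOXC therefore lay above the genome's share and HOXA and HOXD below it in every library.

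**Figure D3:**
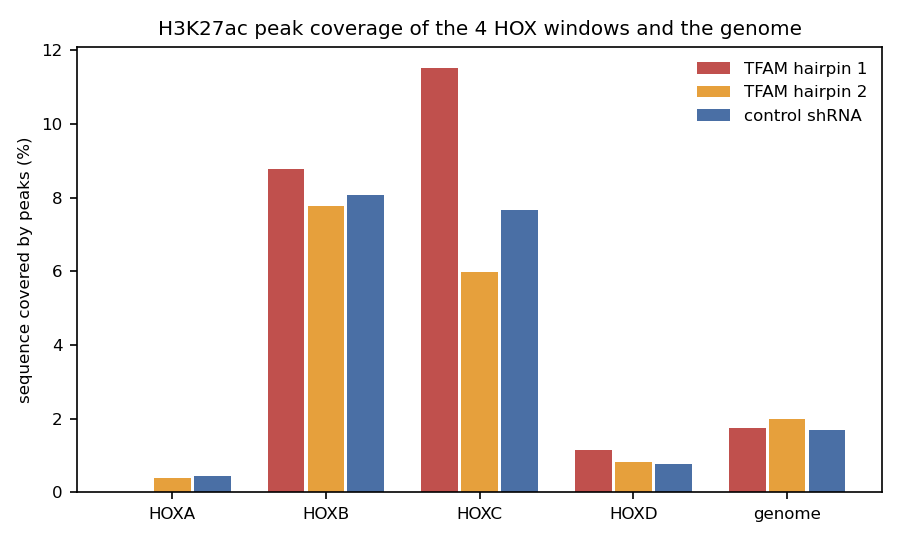
Percent of each HOX window covered by H3K27ac peaks (y axis, %), with TFAM hairpin 1, TFAM hairpin 2 and control shRNA from left to right and 1 library per bar, beside the genome's share. HOXC is covered to 11.5%, 5.97% and 7.66%, and HOXA to under 0.5% in each library.

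The hairpins lay on opposite sides of the control in the HOX windows. Together the 4 windows had 53657 bp covered with hairpin 1, 38796 bp with hairpin 2 and 43340 bp with the control shRNA. Hairpin 1 was 23.8% above the control, where its whole list covered 4.34% more than the control's. Hairpin 2 differed from the control by -10.5%, where its whole list covered 18.7% more. HOXC carried most of this, with 25015 bp with hairpin 1, 12969 bp with hairpin 2 and 16643 bp with the control. The order depended on the flanks and on peaks of low score. Inside the clusters, without flanks, 36527 bp were covered with hairpin 1, 29636 bp with hairpin 2 and 28225 bp with the control. There both hairpins lay above the control. With only the 50% of peaks that scored highest in each list, the windows had 17373 bp with hairpin 1, 24055 bp with hairpin 2 and 22979 bp with the control, so both hairpins changed sides. With the lists set to equal length the sums were 53657, 38274 and 43340 bp.

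**Figure D4:**
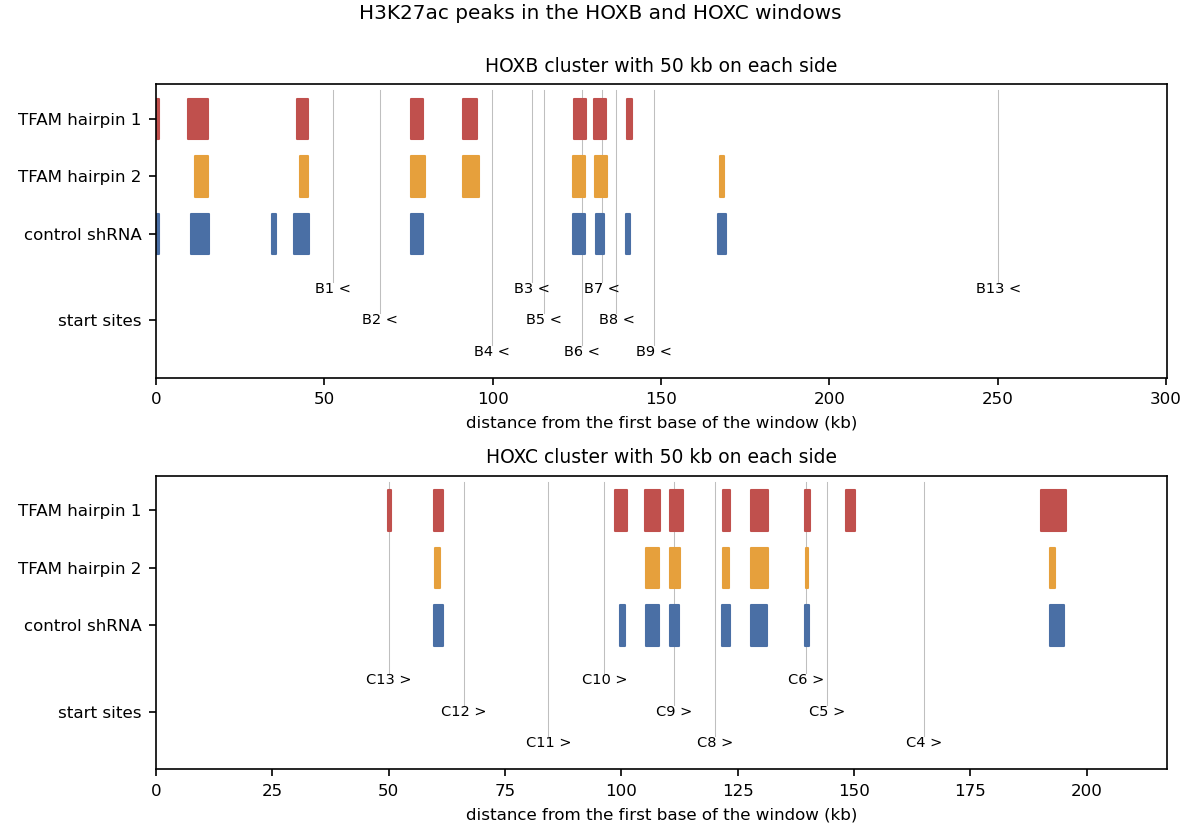
Maps of the HOXB and HOXC clusters with 50 kb on each side (x axis, kb from the window's first base), with H3K27ac peaks as boxes for TFAM hairpin 1, TFAM hairpin 2 and control shRNA from top to bottom above the HOX start sites, whose arrowheads give the direction of transcription. The HOXB map holds 8, 7 and 9 peaks and the HOXC map 10, 7 and 8, and the HOXB box next to the B4 start site is missing in the control.

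The peaks of the windows joined into 26 regions, of which 13 held a peak in every library. That is 50%, against 49.9% of regions over the genome. Peaks with both hairpins and none with the control shRNA made up 1 region (background 5.91%), and peaks with the control alone made up 2 (background 7.05%). A further 2 were found with hairpin 1 alone (background 9.71%) and 3 with hairpin 2 alone (background 16.0%). Of the remaining 5, hairpin 1 was the only library without a peak at 1 (background 7.21%), and hairpin 2 the only one without at 4 (background 4.29%). The share missing with hairpin 2 alone was above its background, and the other classes were within 2 regions of theirs. The shared regions were 5 of 10 in HOXB, 7 of 10 in HOXC, 1 of 4 in HOXD and 0 of 2 in HOXA.

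Beside the HOXB7 promoter, 3 regions away from canonical promoters ranked high and were shared by all libraries. The region at 54410499 to 54414224 on chromosome 12, over the long HOXC4 transcript's start and first exons, spanned 3640 bp with hairpin 1, 3697 bp with hairpin 2 and 3443 bp with the control shRNA. It ranked above 88.1%, 88.8% and 92.0% of peaks in that order. A region at 46631505 to 46635840 on chromosome 17, over HOXB3 exons and the start of the antisense RNA HOXB-AS2, spanned 3331, 4336 and 3508 bp with ranks of 73.0%, 59.9% and 80.2%. At 54387593 to 54390830 on chromosome 12, over an alternative HOXC9 start and the antisense RNA HOXC-AS2, the peaks spanned 3238, 2980 and 2843 bp. The regions on chromosome 12 differed less in width between libraries than the HOXB3 region, which was widest with hairpin 2. Over all window peaks the median rank was 37.4% with hairpin 1, 40.2% with hairpin 2 and 43.2% with the control, so most lay below the middle of their lists.

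The 1 region present with both hairpins and absent with the control shRNA lay inside the HOXB cluster. It ran from 46646908 to 46651693 on chromosome 17, over an exon and 1 of the alternative start sites of HOXB3 and 4019 bp from the HOXB4 start site. Its peaks spanned 4316 bp with hairpin 1 and 4786 bp with hairpin 2, and ranked above 20.4% and 24.7% of peaks. Of hairpin 1 peaks of like rank 49.5% had no control counterpart, and of hairpin 2 peaks 51.9%. A peak of this rank without a control counterpart was therefore common. These shares also hold peaks found with 1 hairpin alone. At this rank, the share present with both hairpins and absent with the control was not computed.

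The 2 regions present with the control shRNA alone lay in HOXA and before HOXB. The HOXA region, at 27152967 to 27153877 on chromosome 7, overlapped exons of both HOXA3 and HOXA-AS2. It spanned 911 bp and was the control's only peak in the window. It ranked above 11.2% of control peaks, and 30.0% of peaks of like rank had no counterpart with either hairpin. The other region lay between genes at 46590433 to 46591574 on chromosome 17, 16799 bp from the HOXB1 start site, and spanned 1142 bp with a rank of 15.5%. For that rank the share without a counterpart was 28.1%.

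Another unshared region lay at the 5′ side of HOXB9. At 46722845 to 46725191 on chromosome 17, over the paired starts of LINC02086 and LINC03057, peaks spanned 0 bp with hairpin 1, 1129 bp with hairpin 2 and 2347 bp with the control shRNA. The control peak ranked above 64.3% of its list, and 4.66% of control peaks of like rank lacked a hairpin 1 counterpart. The hairpin 2 peak ranked above 34.8%, and 41.7% of hairpin 2 peaks of like rank lacked one. The region was picked out after its values were seen. In a HOXC10 exon, at 54381278 to 54383892 on chromosome 12, peaks spanned 2615 bp with hairpin 1, 0 bp with hairpin 2 and 999 bp with the control. Near HOXD12, at 176961900 to 176962790 on chromosome 2, they spanned 852, 0 and 794 bp in that order, and 16.6% of control peaks of like rank lacked a hairpin 2 counterpart, as did 1049 of 2382 hairpin 1 peaks of like rank. A HOXC4 exon region at 54430817 to 54432741 had 1925 bp with hairpin 1 and none in the other libraries.

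Shared regions also differed in width between the hairpins. Over the 13 shared regions the median width was 3238 bp with hairpin 1, 2398 bp with hairpin 2 and 2843 bp with the control shRNA, against 2348, 2527 and 2262 bp over the 16871 shared regions of the genome. The median log2 ratio of widths to the control was 0.19 for hairpin 1 (genome 0.05) and -0.16 for hairpin 2 (genome 0.12). Peaks were wider than in the control at 8 of 13 regions with hairpin 1 (genome 55.2%) and at 5 of 13 with hairpin 2 (genome 63.7%). The log2 ratios ran between -0.44 and 0.99 for hairpin 1 and between -1.68 and 0.48 for hairpin 2. The extreme of hairpin 2 was the region at 54472744 to 54478200, 25125 bp from the HOXC4 start site, with 5457 bp with hairpin 1, 902 bp with hairpin 2 and 2892 bp with the control.

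**Figure D5:**
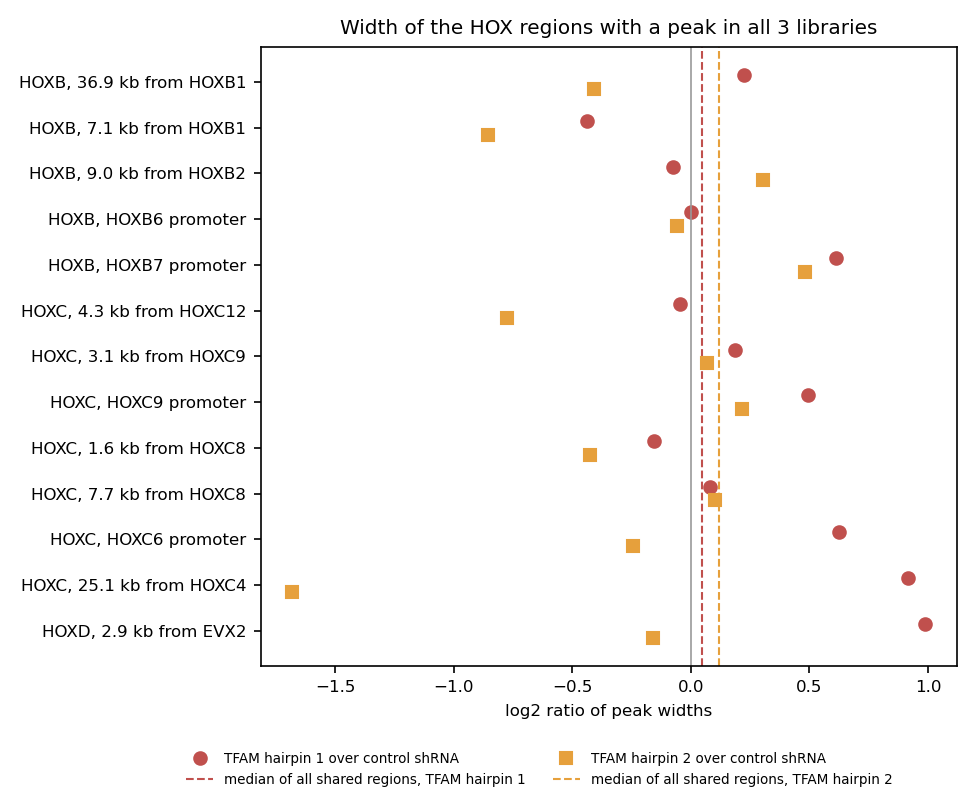
Log2 ratio of peak width to the control shRNA (x axis) for each of the 13 HOX regions with a peak in all libraries, with TFAM hairpin 1 as circles and TFAM hairpin 2 as squares; dashed lines are the medians of all shared regions of the genome. Hairpin 1 reaches 0.99 and hairpin 2 reaches -1.68.

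Some noncoding neighbours of the HOX genes were marked too. Of 37 long noncoding RNA genes that overlap the windows, 7 had a promoter peak in every library, among them HOXB-AS2, HOXC-AS1 and HOXC-AS2. LINC02086 and LINC03057 had one with hairpin 2 and with the control shRNA, HOXC13-AS had one with hairpin 1 alone, and 27 had none. Those with none included HOTAIR, HOTTIP and HOTAIRM1, noncoding RNAs of the HOXC and HOXA clusters known as regulators of HOX genes or other loci. Of the other genes that overlap the windows, none of 7 microRNA genes and none of 7 coding genes had a promoter peak. Over all coding genes 41.4% had none in any library. The shares over all long noncoding RNA and microRNA genes are not given here. The counts of those 2 types therefore cannot be read as high or low. EVX2, a homeobox gene beside HOXD, had a peak over an exon in every library, of 1449 bp with hairpin 1, 653 bp with hairpin 2 and 730 bp with the control.

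CpG content was compared between HOX promoters and other promoters. In the 250 bases before the start site the median HOX gene had 15 CpG and an observed over expected CpG ratio of 0.80. The median over all coding genes was 18 CpG with a ratio of 0.75, and over the 8346 coding genes with no promoter peak it was 7 CpG with a ratio of 0.39. The 6 HOX genes with a promoter peak in any library had a median of 13 CpG and a ratio of 0.71, and the 33 with none had 15 CpG and a ratio of 0.83. By this ratio the unmarked HOX promoters lay near the genes marked in all lists (0.86), although their G+C content of 57.2% was near that of unmarked genes at 56.4%.

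Short motifs were searched on both strands of the same 250 bases. CCAAT, the letters read by the factor NF-Y, was present in 29 of 39 HOX promoters (74.4%), against 34.2% over all coding genes and 32.6% over those with no promoter peak. TGATNNAT, a form read by pairs of PBX and HOX proteins, was present in 7 of 39 (17.9%), against 4.23% and 7.05%. TATAAA was present in 6 (15.4%), against 9.40% of all coding genes and 16.1% of those with no promoter peak. GGGCGG was present in 18 (46.2%), against 58.6% and 38.9%, so for both motifs the HOX share lay between or near these backgrounds. Matches of CCAAT and TGATNNAT can share at most 2 bases, and matches of the other motifs were counted without regard to overlap. A match is a description of letters and not of binding.

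Retinoic acid switches on HOX genes in embryos through receptors that bind direct repeats spaced by 5 bases, so these letters were sought across the windows. The wide form, NGNTCA followed by 5 bases of any kind and NGNTCA again on either strand, was in 0 of 39 HOX promoters (0.452% of all coding genes). It had 35 sites in the 4 windows, of which 4 lay in hairpin 1 peaks, 3 in hairpin 2 peaks and 5 in control peaks. It occurred 93.1 times per Mb in the HOX regions, from only 6 sites in 64424 bp. Of those 6 sites 4 were of the narrow form described next. The rates were 37.9 per Mb over the whole windows and 27.3 per Mb in all 33834 regions of the genome. The narrow form, GGTTCA and AGTTCA with 5 bases between them, is a subset of the wide one chosen after its sites were seen, and it had 7 sites in the windows. Of these 4 lay in the 26 HOX regions, and 22 lay in all regions of the genome. Shown here are 5 of them, 1 or more from each of the 4 clusters, each with 10 bases on either side and the repeat in capitals, 5′ to 3′ in GRCh37.
HOXB3 site, chr17:46632782-46632818, minus strand: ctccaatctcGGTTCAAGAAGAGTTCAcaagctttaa
HOXB1 site, chr17:46599626-46599662, minus strand: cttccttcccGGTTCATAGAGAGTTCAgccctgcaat
HOXC4 site, chr12:54476558-54476594, plus strand: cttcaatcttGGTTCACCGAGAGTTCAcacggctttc
HOXA3 site, chr7:27153133-27153169, minus strand: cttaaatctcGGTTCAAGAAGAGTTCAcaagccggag
HOXD3 site, chr2:177030631-177030667, plus strand: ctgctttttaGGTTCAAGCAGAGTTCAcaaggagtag
The HOXB3 site and the site 6236 bp beyond the 3′ end of HOXB1 lay in peaks of all libraries. The HOXC4 site, 26754 bp beyond that gene's 3′ end, lay in a peak with hairpin 1 and with the control shRNA and in none with hairpin 2. The HOXA3 site lay in the control's peak alone, and the HOXD3 site lay in no peak. The HOXA3 and HOXB3 sites, in paralogous genes, were identical in all 17 bases of the repeat and in 31 of the 37 bases shown. These paralogous sites differed in marking, since the HOXB3 one lay in a peak with both hairpins and with the control and the HOXA3 one with the control alone.

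Other genes of the HOX system were described by lists. Of 12 cofactors and CDX regulators, 6 had a promoter peak with hairpin 1, 6 with hairpin 2 and 7 with the control shRNA. In all lists 5 had one (background 50.3%). At 50%, 50% and 58.3% the shares per library lay near those of all coding genes (54.7%, 54.9% and 53.7%). PBX2, a partner of HOX proteins on DNA, had 7123 bp covered within 5 kb with hairpin 1, 731 bp with hairpin 2 and 6541 bp with the control. MEIS3, another partner, had 0, 892 and 623 bp in the same order. Of 17 regulators of HOX transcription, 16 had a promoter peak with hairpin 1, 14 with hairpin 2 and 14 with the control. In all lists 11 had one (background 50.3%). The shares per library were 94.1%, 82.4% and 82.4%, above those of all coding genes. The histone H3 methyltransferase DOT1L had 5510 bp with hairpin 1, 5015 bp with hairpin 2 and 0 bp with the control, and its partner MLLT10 had 4287, 4722 and 0 bp. MLLT1 had 2745 bp with hairpin 1, 0 bp with hairpin 2 and 2040 bp with the control, and MLLT3 had 1489, 0 and 0 bp. DOT1L and MLLT10 were the 2 regulators with a promoter peak in both hairpin libraries and none in the control, a class that held 1.53% of all coding genes. A further 1 regulator had one in every library but hairpin 1, against 269 of 20149 coding genes. In every library but hairpin 2 the count was 2, MLLT1 included, against 244 of 20149. No listed peak was wider than 8781 bp with hairpin 1, 8841 bp with hairpin 2 or 8704 bp with the control. Whether wider regions were left out of the lists was not tested.

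Of 67 other homeobox genes outside the clusters, 18 had a promoter peak with hairpin 1, 12 with hairpin 2 and 14 with the control shRNA. In all 3 lists 12 had one (background 50.3%), and none had one in both hairpin lists and not in the control (background 1.53%). The shares were 26.9%, 17.9% and 20.9%, also under the background of all coding genes. Peaks with hairpin 1 alone were found at 4 of them, LHX6 included, against 1.65% of all coding genes. GBX2 and EN1 had a peak with hairpin 1 and the control but none with hairpin 2, against 244 of 20149 coding genes. Hairpin 1 was thus the library with the most marked homeobox genes.

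Markers of blood cell types were read beside the shares of all coding genes, which were 54.7% with hairpin 1, 54.9% with hairpin 2 and 53.7% with the control shRNA. Of 12 erythroid markers 6 had a promoter peak with hairpin 1, 5 with hairpin 2 and 6 with the control shRNA, while none of HBE1, HBG1, HBG2, GATA1, KLF1 and NFE2 had a listed one. Of 6 lymphoid markers 2 had a peak with hairpin 1 (CD3D and CD79A), and 0 with hairpin 2 or the control, where a peak with hairpin 1 alone was found at 1.65% of all coding genes. Of 6 myeloid markers 3 had a peak with hairpin 1 (ELANE, ITGAM and SPI1), 1 with hairpin 2 and 1 with the control, SPI1 in both. Covered sequence within 5 kb averaged 1333 bp over the lymphoid markers with hairpin 1, 1029 bp with hairpin 2 and 526 bp with the control, and over the myeloid markers 2258, 1056 and 971 bp. Over the erythroid markers the means were 2022, 2124 and 2524 bp. The part of these differences between libraries in the HOX results was not tested.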

How the data were processed

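H3K27ac peak lists of 3 K562 libraries were used, 1 per condition, grouped by sample title. Each deposited list gives a start, an end and the authors' score per peak, used only for ranks within a list. Per the labels' protocols, reads with exactly 1 place in hg19 were kept. Bowtie 0.12.7 and Picard are named in the submitters' processing notes without their roles. The caller's settings, its use of the input and the depth of reads are not given in the sources used here, and the input library was not analysed here. The lists held 23819 peaks with hairpin 1, 27007 with hairpin 2 and 23413 with the control shRNA.

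Genes came from GENCODE release 44 on GRCh37, with the canonical start site in 19869 genes. Peaks overlapping by 1 bp were joined into regions. Positions are 1-based. Some genes and sequences are not reported here. All 39 members are counted; of other lists, up to 4 genes with a peak in some lists were named. Members, lists and motifs were chosen with earlier results of these data known. Code was tested on simulated data, exact in 20 of 20 runs. Tools were SciPy 1.17.1 for intervals, numpy 2.4.6, matplotlib 3.10.9 for figures and Python 3.11.15.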

Additional observations from a re-analysis of the deposited data

Results flagged for a closer look

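In the HOXB and HOXC windows the hairpins lay on opposite sides of the control shRNA in covered sequence. In the HOXB window the difference from the control was 2079 bp for hairpin 1 and -877 bp for hairpin 2. In the HOXC window it was 8372 bp for hairpin 1 and -3674 bp for hairpin 2. Inside the HOXB cluster, without flanks, 16288 bp were covered with hairpin 1, 17047 bp with hairpin 2 and 12769 bp with the control. There both hairpins lay above the control. Inside the HOXC cluster the values were 19387, 12067 and 13751 bp in that order, again on opposite sides. With 1 library per condition the difference between the hairpins was not tested. With only the 50% of peaks that scored highest in each list, the differences were -4755 and 3254 bp in HOXB and -2300 and -2178 bp in HOXC, hairpin 1 first.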

How the results depend on the processing

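Of 71 alternative values, 57 stayed within 1.5 times the reported one, and 14 did not. Those that stayed include promoter counts of 0 reported as 0, for which no ratio exists. They also include control values at equal list length, which could not change because the control list is the shortest. With promoters of 2.5 kb on each side, 8 HOX genes had a promoter peak with hairpin 1 (5 at 1 kb). In the higher-scoring 50% of each list, 1 HOX gene had a promoter peak with hairpin 1, 3 with hairpin 2 and 1 in all lists. The windows then held 6, 7 and 8 peaks over 17373, 24055 and 22979 bp with hairpin 1, hairpin 2 and the control shRNA, with 4 shared regions and 0 present with both hairpins alone. Without flanks the covered sequence was 36527 bp with hairpin 1, 29636 bp with hairpin 2 and 28225 bp with the control. Hairpin 2 then lay above the control, and 1 region was present in the control alone. By construction these settings take in wider promoters, fewer peaks or less sequence. Counted per gene, no HOX promoter had a peak with both hairpins alone or with the control alone under any setting tried, although 2 alternative HOXB3 start sites had one with both hairpins alone. No paired analysis was possible because each condition has 1 library and the labels give no replicate numbers. Unknown depth limits every statement on absence.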
